A study of Mus musculus with 6 samples.

Results

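The mouse mitochondrial genome was examined through the 37 genes that the deposited expression table places on chromosome MT, which are all of its rows with that chromosome name, out of 54532 rows in the whole table. They comprise 13 mRNAs, 2 rRNAs and 22 tRNAs. Of these 37 genes, 34 had at least 1 read in some library, and the same 34 passed the filter of a mean FPKM (reads scaled to gene length and library depth) of at least 0.1. The other 3 rows, mt-Tf, mt-Ts1 and mt-Tk, the tRNAs for phenylalanine, a serine and lysine, had no read in any library.

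The mitochondrial genome is a small circular DNA that is present in many copies in each cell. All of its proteins are core subunits of the respiratory chain or of the ATP synthase, while the rRNAs and tRNAs serve the organelle's own ribosomes. Both strands are transcribed from end to end into long precursors, and the tRNAs that lie between most mRNAs and rRNAs are cut out of them, which frees the neighbouring transcripts. Because the genes of a strand share a precursor, differences in their mature levels depend largely on processing and stability, and in brain tissue the chain supplies most of the ATP that neurons use. Parts of this genome have also been copied into the nuclear chromosomes over evolution, where they lie as inactive copies.

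Hippocampal RNA from 3 WT and 3 TG mice was compared. In the TG mice, Slc1a2, which encodes the astrocytic glutamate transporter GLT-1, carries a knock-in of G82R and L85P that was made with CRISPR/Cas9 in exon 3 on a C57BL/6N background. The WT mice were littermates without the changes, and genotype is the treatment that the labels name. The study also ran behavioural tests, and whether the sequenced mice had been through them is not given in the sources used here. The age, sex and zygosity of the sequenced mice and the number of founders behind the line are not given in the sources used here. The paper lists males and females among both its WT and its TG mice. Libraries are named by group and replicate number, so that WT2 is the second WT mouse, and values are always given in the order of these numbers. They held 16081281 to 18751057 reads on genes, and 3 reads on a gene of 1 kb correspond to an FPKM between 0.160 and 0.190. All 12 neuronal markers listed for the tissue check were detected, with a summed FPKM between 1654 and 1883. Whole tissue was used, so fewer cells of a type rich in mitochondria and less mitochondrial RNA per cell cannot be told apart. The samples are numbered mice, and nothing further is known here about litters or dissections. The limma p-values therefore rest on the spread between these libraries, drawn towards a trend over genes of similar level.

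Sequence mattered for reading the table, because 7 nuclear rows on chromosome 1 repeat mitochondrial genes almost base for base. Together they lie between 24611535 and 24616197 on the minus strand of chromosome 1 in GRCm38 and match positions 6394 to 11042 of the mitochondrial genome, an interval of 4649 bases. The annotation calls all 7 unprocessed pseudogenes. A selection of 3 stretches of 60 bases are shown from GENCODE M21 transcripts, with any base that differs from the copy in capitals. The stretch of mt-Co3, which gave the smallest p of any mitochondrial gene, is printed a single time because its copy Gm28437 has the same letters there.
mt-Co3 and Gm28437: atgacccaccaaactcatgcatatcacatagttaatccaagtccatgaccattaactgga
mt-Nd3: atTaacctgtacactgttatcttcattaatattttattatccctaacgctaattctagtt
Gm28438: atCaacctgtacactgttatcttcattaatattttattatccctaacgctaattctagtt
mt-Co1: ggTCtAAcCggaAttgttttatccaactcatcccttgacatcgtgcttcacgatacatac
Gm29216: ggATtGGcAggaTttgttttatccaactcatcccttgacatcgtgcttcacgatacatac

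The stretch of mt-Co3 spans positions 8607 to 8666 of the mitochondrial genome, that of mt-Nd3 spans 9459 to 9518, and that of mt-Co1 spans 6381 to 6440. Counting from 1 at the first base of the gene, mt-Nd3 differed from its copy only by T3C, over 345 aligned bases. Over 783 aligned bases, mt-Co3 had 0 differences from Gm28437. The same holds for mt-Co2 and Gm28661 over 681 bases, mt-Atp6 and Gm10925 over 678 bases, mt-Nd4 and Gm28439 over 876 bases, and mt-Nd4l and Gm10222 over 294 bases. Gm29216 aligned to the last 492 bases of mt-Co1 with 6 differences, T1056A, C1057T, A1059G, A1060G, C1062A and A1066T, all within the first bases of the alignment. A read of 50 bases from most of these genes therefore cannot be placed by its sequence alone.

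The tRNAs named most often in the results are shown in full, in the direction of transcription, with the anticodon in capitals. These are mt-Tp and mt-Tc, which had the highest tRNA levels, and mt-Ti and mt-Ta, which had the lowest p among the tRNAs.
mt-Tp: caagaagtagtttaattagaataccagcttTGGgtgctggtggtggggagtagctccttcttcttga
mt-Tc: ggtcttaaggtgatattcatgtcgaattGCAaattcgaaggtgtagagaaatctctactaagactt
mt-Ti: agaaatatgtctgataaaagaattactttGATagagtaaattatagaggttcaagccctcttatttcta
mt-Ta: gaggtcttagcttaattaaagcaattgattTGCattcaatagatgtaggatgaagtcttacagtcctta

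The gene mt-Tp encodes the proline tRNA and lies at positions 15356 to 15422 on the minus strand, and mt-Tc, the cysteine tRNA, lies at 5192 to 5257 on the same strand. On the plus strand, mt-Ti, the isoleucine tRNA, lies at 3706 to 3774, and mt-Ta, the alanine tRNA, lies at 5018 to 5086 on the minus strand. At 66 to 69 bases they are short in relation to a sequenced fragment, which limits how many of their mature molecules an RNA-seq library captures.

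Mitochondrial transcripts were among the most abundant RNAs of the hippocampus in both groups. By mean FPKM over the 6 libraries, 9 of the 11 highest rows of the table were mitochondrial mRNAs or rRNAs. The highest row of all was mt-Co1 (5328 to 6872, plus strand), which encodes a catalytic subunit of cytochrome c oxidase, complex IV of the chain. It had 10650, 10027 and 10845 FPKM in WT mice and 8238, 10625 and 10100 in TG mice. TG1 was the lowest library and the other TG libraries lay inside the WT range, so the groups overlapped. The second row was mt-Cytb (14145 to 15288, plus strand), the cytochrome b of complex III, with an FPKM of 5858, 5662 and 6022 in WT mice and 4232, 5621 and 5360 in TG mice. Here every TG library lay below every WT library, TG2 and WT2 being close to each other.

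The 7 subunits of complex I, the NADH dehydrogenase that feeds electrons into the chain, covered a wide range of levels. The highest was mt-Nd1, with 5244, 4882 and 5750 FPKM in WT mice and 3608, 4928 and 4598 in TG mice. For mt-Nd2 the values were 2589, 2757 and 3088 in WT mice and 1973, 2628 and 2377 in TG mice. TG1 was again the lowest library for both genes, and the groups overlapped. The values of mt-Nd4 were tight in WT mice, at 2365, 2339 and 2370 FPKM, and all 3 TG values, 1839, 2325 and 2218, lay below them. In contrast, mt-Nd5 had its lowest value in a WT library, with 1952, 2035 and 1704 FPKM against 1718, 1897 and 1904. The order mt-Co1, mt-Cytb, mt-Nd1, mt-Nd2, mt-Nd4 and mt-Nd5 was the same in all 6 libraries, whereas mt-Nd5 and mt-Nd6 changed places in WT3.

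The only mRNA on the other strand is mt-Nd6 (13552 to 14070), a complex I subunit that overlaps mt-Nd5 by 14 bases and whose reads cannot be told apart from antisense reads, because the strand setting of the libraries is not stated. It had 1666, 1661 and 2260 FPKM in WT mice and 1494, 1727 and 1509 in TG mice. Per read on the other mRNAs, mt-Nd6 had 0.0227, 0.0235 and 0.0300 reads in WT mice and 0.0268, 0.0241 and 0.0221 in TG mice, and these ranges overlapped. The 2 rRNAs form the cores of the small and large ribosomal subunits of the organelle. The small one, mt-Rnr1, had 2863, 2458 and 3595 FPKM in WT mice and 2178, 2858 and 2918 in TG mice. The large one, mt-Rnr2, had 2467, 2080 and 3130 FPKM in WT mice and 1955, 2339 and 2378 in TG mice. WT3 was the highest and TG1 the lowest library for both rRNAs, and the groups overlapped.

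**Figure D1:**
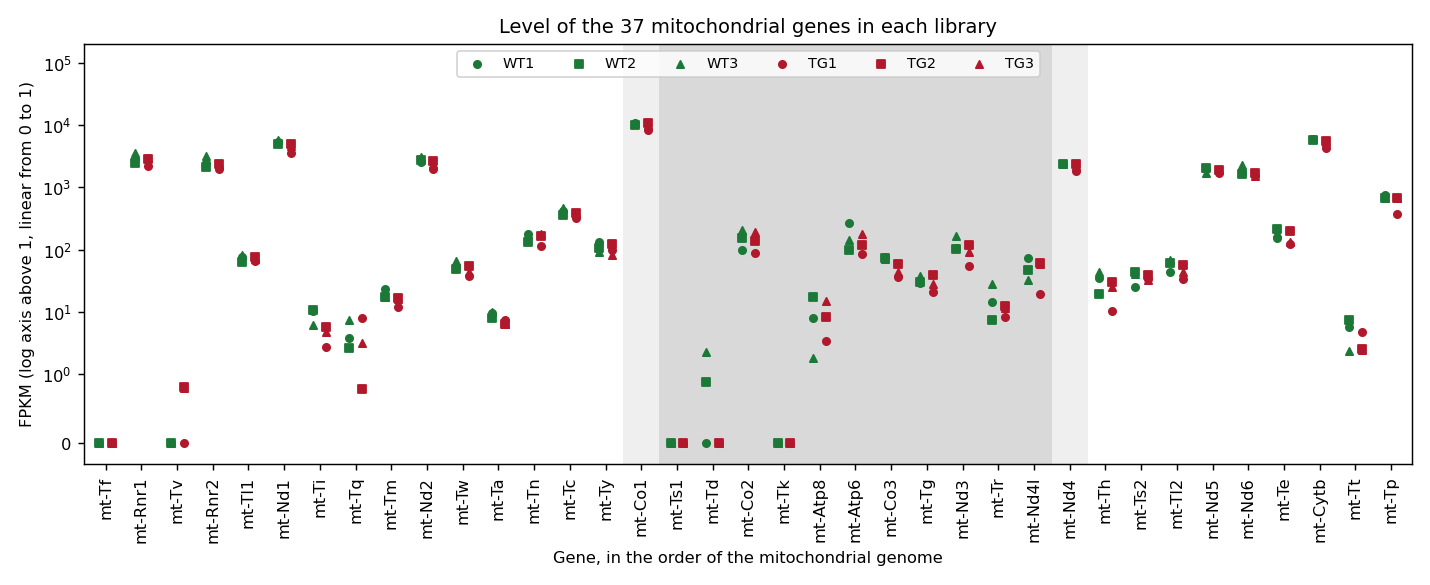
FPKM (vertical axis, logarithmic above 1 and linear from 0 to 1) of each of the 37 mitochondrial genes in genome order (horizontal axis), with WT libraries in green and TG libraries in red, and circles, squares and triangles for replicates 1 to 3. Dark shading marks the 11 genes inside the interval that the chromosome 1 copies span and light shading the 2 genes that reach into it; the mRNAs in the dark shading had mean levels from 8.94 to 149 FPKM and the 5 mRNAs outside from 1719 to 5459 FPKM.

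The level of an mRNA followed its position in relation to the nuclear copies. The 6 mRNAs that lie inside the copied interval, mt-Co2, mt-Atp8, mt-Atp6, mt-Co3, mt-Nd3 and mt-Nd4l, had mean levels between 8.94 and 149 FPKM. The 5 mRNAs outside it, mt-Nd1, mt-Nd2, mt-Nd5, mt-Nd6 and mt-Cytb, had mean levels between 1719 and 5459 FPKM. The 2 mRNAs that lie only partly in it, mt-Co1 and mt-Nd4, had 10081 and 2243 FPKM. In each of the 6 libraries, all mRNAs inside the interval lay below all mRNAs outside it. Of the 50-base stretches of each gene, 100% occurred in the transcript of a nuclear gene for mt-Co2, 99.9% for mt-Co3, 99.5% for mt-Atp6, 98.8% for mt-Nd4l and 98.0% for mt-Nd3. The share was 62.2% for mt-Nd4 and 51.1% for mt-Co1, and between 0 and 8.19% for the 5 mRNAs outside. For mt-Atp8 it was 0, although the gene lies inside the interval. Annotated transcripts of the copies cover only its end, from 7927 to 7969, which is shorter than a stretch of 50 bases. How reads that match several genes were counted is not given in the sources used here, so the levels inside the interval are uncertain. Those of mt-Co1 and mt-Nd4 are uncertain in part, as are orders and shares of reads that include any of these genes. The part of that rule in these levels was not tested.

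Reads were also assigned to the copies. Where a copy has no base difference from its mitochondrial gene, such a read can come from either sequence, and whether the copies are transcribed was not tested. Gm28661, the copy of mt-Co2, had 80.9, 85.3 and 118 FPKM in WT mice and 65.5, 93.1 and 78.2 in TG mice, against 99.6, 153 and 204 and then 88.0, 139 and 189 for mt-Co2. Gm10925, the copy of mt-Atp6, a subunit of the proton channel of the ATP synthase, had 75.3, 78.1 and 72.0 FPKM in WT mice and 56.6, 69.9 and 85.6 in TG mice. For mt-Atp6 the values were 268, 99.1 and 144 in WT mice and 85.0, 118 and 179 in TG mice, so the gene varied more between libraries of a group than its copy did. All 7 copies together took 0.0190%, 0.0202% and 0.0221% of the reads in WT mice and 0.0148%, 0.0200% and 0.0192% in TG mice. Their log2 fold changes lay between -0.33 (Gm28438) and -0.05 (Gm29216), none had an unadjusted p under 0.05 with limma, and the groups overlapped for each.

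**Figure D2:**
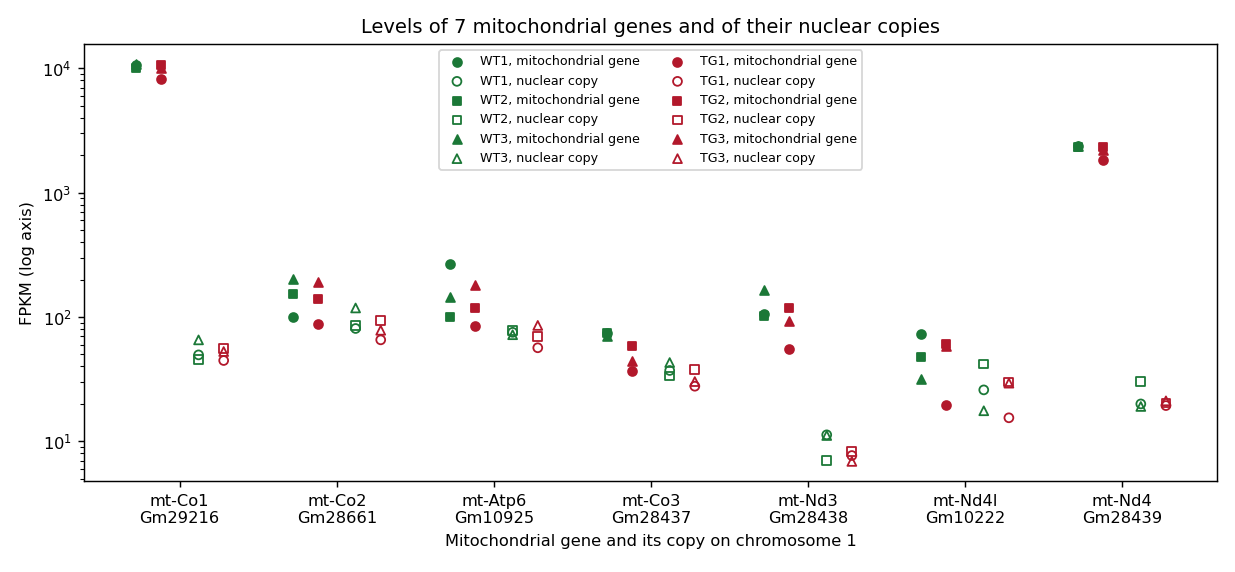
FPKM on a logarithmic axis of 7 mitochondrial genes (filled symbols) and of their chromosome 1 copies (open symbols), with WT libraries in green and TG libraries in red and a symbol shape per replicate. The mt-Co1 and mt-Nd4 values lie far above those of their copies, whereas mt-Co2, mt-Atp6, mt-Co3 and mt-Nd4l lie within a few fold of theirs; for mt-Co3 every TG library (36.5 to 58.0 FPKM) lies below every WT library (69.8 to 74.9 FPKM).

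No mitochondrial gene differed between TG and WT mice after adjustment over all 20952 genes tested. With limma and Benjamini-Hochberg adjustment, 0 of 34 genes had an adjusted p under 0.05, and the smallest adjusted p was 0.786, while 0.00955% of all genes tested were called. At an unadjusted p under 0.05, 4 of the 34 genes had lower values in TG mice, against 2.78% of all genes tested, and 1 was higher, against 3.13%. With limma-voom on the recovered reads, 3 were lower, 0 were higher and 0 passed the adjusted threshold. Of the 5 genes with an unadjusted limma p under 0.05, all except mt-Co3 had a mean under 10 reads per library. The 3 genes of limma-voom were instead all mRNAs with a mean of at least 823.5 reads. They were mt-Co3 (unadjusted limma-voom p 0.000663), mt-Nd2 (0.0261) and mt-Nd1 (0.0305). In limma, mt-Nd2 and mt-Nd1 had unadjusted p of 0.184 and 0.266. Of these 3 genes, mt-Co3 lies inside the copied interval, where levels are uncertain. For 7 of the 34 genes every TG library lay below every WT library, against 5.71% of all genes tested, and for 0 every TG library lay above, against 6.35%. The 7 were mt-Co3, mt-Nd4, mt-Cytb, mt-Tp, mt-Tm, mt-Ti and mt-Ta. The fold change was below 0 for 32 of the 34 genes, against 50.4% of all genes tested, and a correction for gene length and GC content turned it above 0 for mt-Rnr1, mt-Co2, mt-Nd4 and mt-Nd5. The mitochondrial genes share libraries and precursors, so these counts are not independent observations.

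The smallest p belonged to mt-Co3 (ENSMUSG00000064358, positions 8607 to 9390, plus strand), which encodes a core subunit of cytochrome c oxidase. It had 1086, 936 and 1025 reads in WT mice and 453, 815 and 626 reads in TG mice. The FPKM were 74.9, 73.9 and 69.8 in WT mice and 36.5, 58.0 and 44.2 in TG mice, so the groups did not overlap and the WT values were close together. The means were 72.9 ± 2.69 and 46.2 ± 10.9 FPKM (SD, n = 3 each). This is -0.68 as a log2 fold change (standard error 0.156), with an unadjusted limma p of 0.00299 and a Benjamini-Hochberg adjusted p of 0.786. Without TG1 the log2 fold change was -0.52, and over all libraries left out in turn it lay between -0.86 and -0.52. When the reads of mt-Co3 and of its identical copy Gm28437 were summed, the FPKM were 112, 107 and 113 in WT mice and 64.2, 95.5 and 74.4 in TG mice. These groups did not overlap either, and the log2 fold change was -0.52 (standard error 0.138, unadjusted limma p 0.00637, adjusted p 0.785). The sum holds only reads that were assigned to mt-Co3 or Gm28437, so it cannot recover reads counted on neither row. It also stayed far below the mean levels of the mRNAs outside the copied interval, 1719 to 5459 FPKM. There were 2.02, 2.21 and 1.62 reads on mt-Co3 per read on Gm28437 in WT mice and 1.32, 1.55 and 1.46 in TG mice, so the division of reads between these identical sequences also lay apart between the groups.

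The other subunits of complex IV gave smaller differences. For mt-Co1 the log2 fold change was -0.13 (standard error 0.295) and for mt-Co2 it was -0.14 (standard error 0.332), with overlapping groups. The value of mt-Co2 was 0.16 without TG1, 0.10 without WT3, 0.012 with the correction for gene length and GC content and 0.28 with the choroid plexus covariate, so its sign was not stable. The ATP synthase subunits differed in sign, at -0.36 for mt-Atp6 and 0.21 for mt-Atp8, with standard errors of 0.392 and 0.827. The mt-Atp8 row held only 30, 58 and 7 reads in WT mice and 11, 30 and 54 in TG mice, and its end overlaps the start of mt-Atp6, from 7927 to 7969. All 7 complex I subunits were between -0.51 (mt-Nd3) and -0.04 (mt-Nd5) on the log2 scale, and the value of mt-Nd4 turned to 0.016 and that of mt-Nd5 to 0.10 with the correction for gene length and GC content. For mt-Nd4l, which shares 7 bases with mt-Nd4, there were 402, 228 and 178 reads in WT mice and 92, 325 and 311 in TG mice, so TG1 was lowest and the groups overlapped, and its log2 fold change of -0.23 became 0.31 without TG1. For mt-Nd3 the FPKM were 106, 101 and 164 in WT mice and 55.2, 119 and 92.4 in TG mice, where TG1 was lowest and the groups overlapped. The single gene of complex III, mt-Cytb, had a log2 fold change of -0.22 (standard error 0.237), which was -0.09 without TG1.

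**Figure D3:**
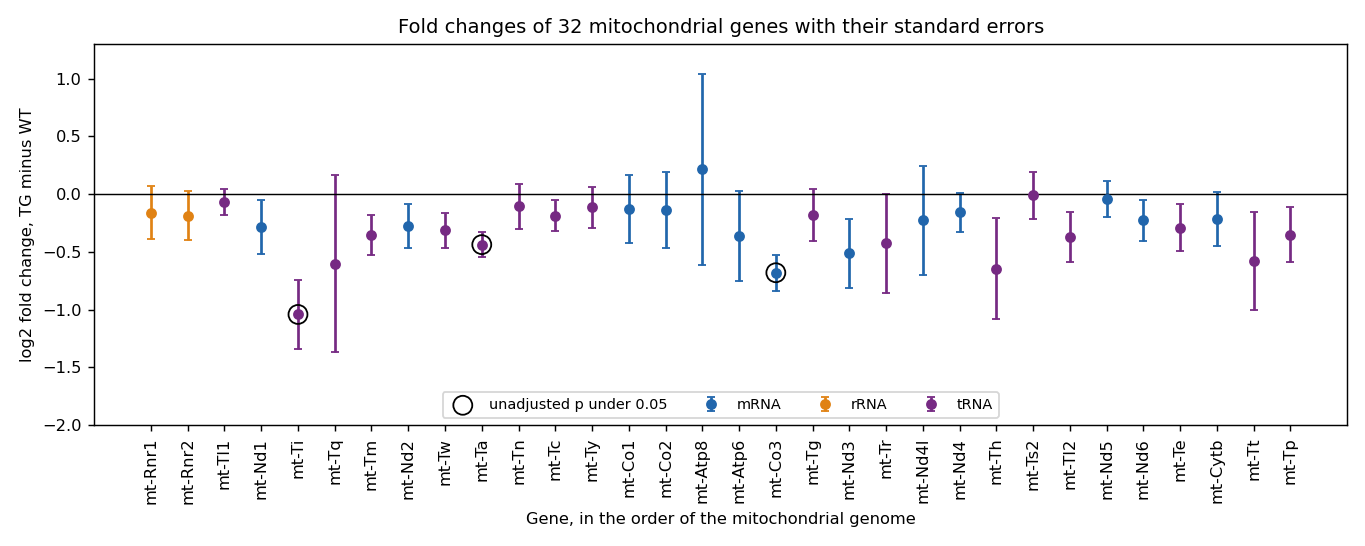
Log2 fold change, TG minus WT (vertical axis), of 32 mitochondrial genes in genome order, with bars of 1 standard error from limma, mRNAs in blue, rRNAs in orange, tRNAs in purple, and a ring where the unadjusted p was under 0.05. The 2 tested tRNAs with no read in all libraries of a group are left out; 31 of the 32 values lie below 0 and mt-Atp8 above, the rings mark mt-Ti, mt-Ta and mt-Co3, and a gene length and GC correction would place mt-Rnr1, mt-Co2, mt-Nd4 and mt-Nd5 above 0.

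The tRNA rows held few reads, and their levels covered a wide range. The 22 tRNAs together took 0.245% to 0.290% of the mitochondrial reads in each library. The 5 highest, mt-Tp, mt-Tc, mt-Te, mt-Tn and mt-Ty, were all on the minus strand, which holds 8 of the 22 tRNA genes. As for mt-Nd6, reads on these rows cannot be told apart from antisense reads, because the strand setting of the libraries is not stated. The other minus-strand tRNAs were among the lowest, with means of 7.96 FPKM for mt-Ta and 4.31 for mt-Tq and no read on mt-Ts1, and no difference between the strands was tested. Like mt-Td, mt-Tk, mt-Tg and mt-Tr, mt-Ts1 lies inside the copied interval, where the 5 tRNAs had means from 0 to 30.6 FPKM. The 17 tRNAs outside it ranged from 0 to 639 FPKM. Sharing was measured only against nuclear transcripts, and the part of the copies in these levels was not tested. The highest of the 14 plus-strand tRNAs, mt-Tl1, the leucine tRNA between the large rRNA and mt-Nd1, had a mean of 72.1 FPKM. For mt-Tp the FPKM were 752, 680 and 684 in WT mice and 370, 677 and 671 in TG mice, with means of 705 ± 40.2 and 573 ± 176 (SD, n = 3 each) and TG1 far below the other libraries. The log2 fold change of -0.35 became -0.06 without TG1. The values of mt-Tc were 411, 361 and 470 FPKM in WT mice and 318, 390 and 380 in TG mice, which overlapped. The genes mt-Tn and mt-Tc, for asparagine and cysteine, border a gap of 32 bases without an annotated gene, which holds the origin of replication of the light strand, and mt-Tp is the last row of the map, beside the control region.

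Among the tRNAs, mt-Ta and mt-Ti had the smallest p. The alanine tRNA mt-Ta held 12, 9 and 13 reads in WT mice and 8, 8 and 8 in TG mice. The FPKM were 9.41, 8.08 and 10.1 in WT mice and 7.33, 6.47 and 6.42 in TG mice, which did not overlap, and the log2 fold change was -0.44 (standard error 0.105, unadjusted limma p 0.00395, adjusted p 0.786). With limma-voom, which models the counting error, the standard error was 0.402 and the unadjusted p 0.306. The isoleucine tRNA mt-Ti held 13, 12 and 8 reads in WT mice and 3, 7 and 6 in TG mice, and its log2 fold change of -1.04 (standard error 0.303, unadjusted limma p 0.0101, adjusted p 0.786) had an unadjusted limma-voom p of 0.0778. The methionine tRNA mt-Tm, at 30, 19 and 22 reads in WT mice and 13, 21 and 20 in TG mice, also lay apart on the FPKM scale, where WT3 and TG2 were both at 17.0.

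The other minus-strand tRNAs of high level were mt-Te for glutamate, mt-Tn for asparagine and mt-Ty for tyrosine. The values of mt-Te were 154, 212 and 184 FPKM in WT mice and 122, 201 and 134 in TG mice, and those of mt-Tn were 178, 131 and 176 in WT mice and 113, 166 and 175 in TG mice. For mt-Ty they lay between 91.7 and 130 in WT mice and between 81.0 and 121 in TG mice. All 3 overlapped between the groups, with log2 fold changes of -0.29, -0.11 and -0.12. On the plus strand, mt-Tw for tryptophan had 66, 53 and 81 reads in WT mice and 40, 65 and 52 in TG mice, with TG1 lowest. The plus-strand tRNAs mt-Tl1, mt-Tl2, mt-Ts2, mt-Tg, mt-Th and mt-Tr, for leucine, serine, glycine, histidine and arginine, had means between 13.5 and 72.1 FPKM, from 16.5 to 95.3 reads, and their groups overlapped. The lowest with reads in every library were mt-Tq and mt-Tt, for glutamine and threonine, at means of 5.33 and 4.83 reads, where mt-Tq ranged from 1 read in TG2 to 10 reads in WT3.

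The remaining calls rested on almost no reads. The aspartate tRNA mt-Td had 0, 1 and 3 reads in WT mice and 0 in each TG library, and the valine tRNA mt-Tv had 0 in each WT library and 0, 1 and 1 reads in TG mice. Both groups were at or under 3 reads per library, so no fold is given for these genes. Without them, limma gave 3 lower and 0 higher genes of 32 at unadjusted p under 0.05, and the median log2 fold change was -0.25, as over all 34 genes. Of the 17 other tRNAs tested, all had fold changes below 0, from -1.04 to -0.01, which did not hold for 7 of them when single libraries were left out. Reads carry no molecular identifiers, so these limits cover counting error only.

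The library TG1 stood apart in its mitochondrial RNA. The mitochondrial genes took 4.60%, 4.35% and 4.87% of the reads on genes in WT mice and 3.43%, 4.53% and 4.33% in TG mice, so TG2 lay inside the WT range, TG3 lay just below it, and TG1 was the lowest. The means were 4.61% ± 0.259 and 4.10% ± 0.585 (SD, n = 3 each), and no test was made of this sum. Without TG1 the difference between the groups shrank from -0.51 to -0.18 percentage points. TG1 was the lowest library for 23 of the 37 genes, among them 11 of the 13 mRNAs and both rRNAs, while it was the lowest for 19.1% of all genes tested. WT3 was the highest for 18 genes, against 25.1% of all genes tested.

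The median log2 level of the 34 genes relative to the WT mean was 0.00, -0.06 and 0.14 in WT mice and -0.53, -0.05 and -0.20 in TG mice. For the mRNAs these medians were 0.00, -0.02 and 0.04 in WT mice and -0.55, -0.06 and -0.09 in TG mice. For the tRNAs they were 0.01, -0.09 and 0.16 in WT mice and -0.55, -0.05 and -0.32 in TG mice. All classes were thus lowest in TG1, while TG2 lay inside the WT range over the 34 genes and for the tRNAs, and just below it for the mRNAs. The median log2 fold change was -0.25 over the 34 genes, -0.23 for the mRNAs, -0.17 for the rRNAs and -0.35 for the tRNAs, beside -0.002 over all genes tested. Without TG1 these medians were -0.11, -0.09, -0.06 and -0.18, and without WT3 the median of the rRNAs was -0.02. With the correction for gene length and GC content they were -0.17, -0.07, -0.002 and -0.36, so the mRNA and rRNA medians moved towards 0 and that of the tRNAs did not.

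**Figure D4:**
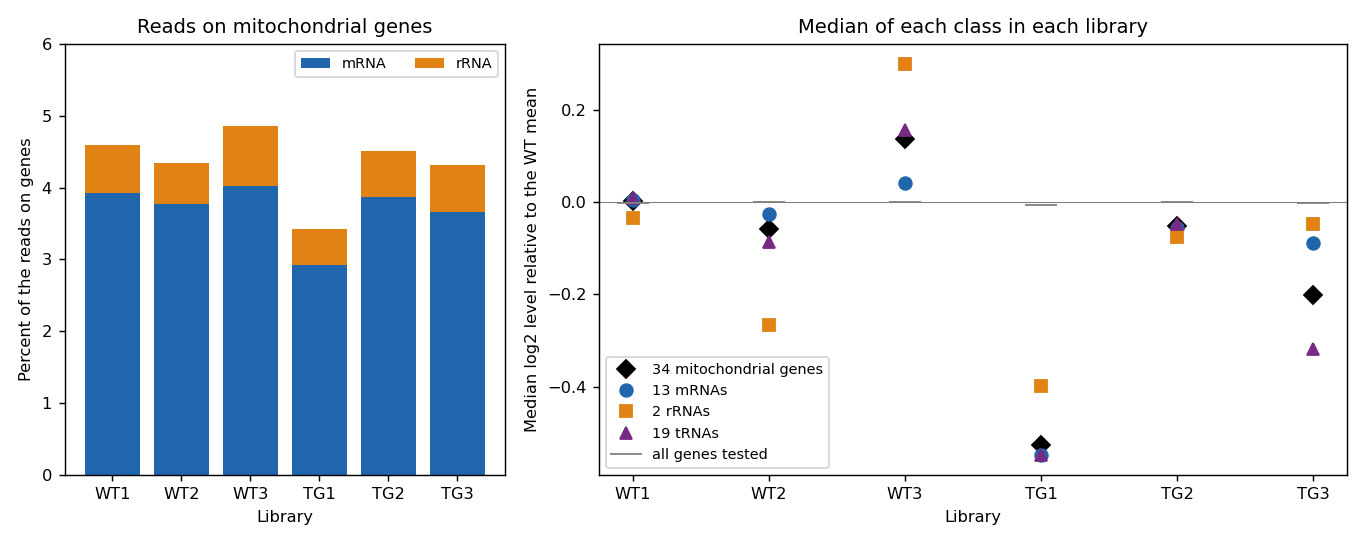
Left, percent of the reads on genes that fell on mitochondrial mRNAs (blue) and rRNAs (orange) in each library, tRNAs being too few to show; right, median log2 level of each class relative to the WT mean, with grey dashes for all genes tested. TG1 has the lowest total, 3.43%, and the lowest median of each class, whereas the medians of TG2 lie near those of WT1 and the tRNA median of TG3, -0.32, lies below the lowest WT value of -0.09.

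Ratios within the mitochondrial genome, which do not depend on the scaling of a library, overlapped between the groups. There were 0.171, 0.150 and 0.208 reads on the rRNAs per read on the mRNAs in WT mice and 0.174, 0.169 and 0.181 in TG mice. The ratio of the small to the large rRNA, on the FPKM scale, was 1.16, 1.18 and 1.15 in WT mice and 1.11, 1.22 and 1.23 in TG mice. The tRNAs took 0.290%, 0.282% and 0.280% of the mitochondrial reads in WT mice and 0.245%, 0.287% and 0.272% in TG mice. TG1 was inside the WT range for the first of these and below it for the others. The share of mt-Co1 among all mitochondrial reads was 36.0%, 35.7% and 34.3% in WT mice and 36.4%, 36.7% and 36.4% in TG mice, so that here the TG libraries lay above the WT libraries; this share was singled out after its values were seen and was not tested.

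Nuclear genes that maintain and express the mitochondrial genome were examined next, in 6 lists that hold 91 genes in all. With limma, 0 of the 91 had an adjusted p under 0.05, while 3 lay lower and 1 higher in TG mice at unadjusted p under 0.05, and 69 had a fold change below 0. Over all genes tested, these shares were 2.78%, 3.13% and 50.4%. Their median log2 fold change was -0.07. In the list for mitochondrial transcription the smallest p belonged to Mterf2, a factor of the mitochondrial terminator family, with 4.60, 5.02 and 4.69 FPKM in WT mice and 2.74, 3.73 and 3.67 in TG mice. These groups did not overlap, and the log2 fold change was -0.50 (standard error 0.134, unadjusted limma p 0.00692, adjusted p 0.786). The tRNA methyltransferase Trmt61b had 2.45, 2.41 and 2.42 FPKM in WT mice and 2.01, 1.87 and 2.01 in TG mice. Of the 17 genes of its list, tRNA maturation, 2 lay lower and 0 higher at an unadjusted limma p under 0.05. In that list 13 genes had a fold change below 0, and the median log2 fold change was -0.13. Tfam, which packages the mitochondrial DNA and starts its transcription, had 7.92, 7.57 and 10.1 FPKM in WT mice and 7.23, 8.48 and 8.10 in TG mice, which overlapped. Among the regulators of mitochondrial biogenesis, Esrra, an orphan nuclear receptor, had 21.2, 20.5 and 21.2 FPKM in WT mice and 25.2, 22.7 and 24.4 in TG mice. Esrra was the only gene of the lists with an unadjusted p under 0.05 (0.0192, limma) on the higher side. Of the 11 genes of the biogenesis list, 3 had a fold change below 0, and the median log2 fold change was 0.08.

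The other lists gave no call on either side at the adjusted threshold, and their counts stand against the same shares over all genes tested, 2.78% lower and 3.13% higher at that unadjusted p and 50.4% with a fold change below 0. Of the 14 genes of mitochondrial DNA replication and packaging and the 18 genes of RNA cleavage, stability and decay, 0 had an unadjusted limma p under 0.05, and their medians were -0.09 and -0.06 on the log2 scale. Of the 22 mitochondrial aminoacyl-tRNA synthetases, which charge the tRNAs with amino acids, 0 had an unadjusted limma p under 0.05 and 19 had fold changes below 0, with a median of -0.08. For all but the biogenesis list the median in TG1 was below 0, from -0.25 for the 10 transcription genes to -0.02 for the RNA cleavage genes. The biogenesis list had a median of 0.17 in TG1. In TG2 and TG3 the medians of the lists other than biogenesis were below 0 too. TG1 was the lowest library for the transcription, tRNA maturation and synthetase lists. For the RNA cleavage genes WT1, WT2 and TG3, at -0.06, -0.07 and -0.07, lay below TG1. For the replication genes TG3, at -0.12, lay below TG1, at -0.09.

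Markers of other cell types also differed between these libraries. The summed FPKM of 16 choroid plexus markers was between 83.1 and 113 in WT mice, and it was 1346 in TG1, 4213 in TG2 and 93.4 in TG3. TG2, with the highest choroid plexus level, had mitochondrial values close to those of WT mice, and TG1, with the lowest mitochondrial values, held the second highest. The median of 9 oligodendrocyte markers relative to the WT mean was 0.16, 0.05 and -0.20 in WT mice and -0.66, -0.19 and -0.07 in TG mice, so TG1 was also lowest there. The summed FPKM of these markers was between 674 and 851 in WT mice and 523, 719 and 779 in TG mice, and all 9 were detected. The 9 microglia markers had medians of 0.002, -0.08 and 0.07 in WT mice and -0.23, 0.23 and 0.25 in TG mice, with TG1 lowest as well, and their summed FPKM was 203, 190 and 216 in WT mice and 174, 242 and 233 in TG mice. For the 12 neuron markers the medians were 0.01, -0.03 and 0.06 in WT mice and 0.13, -0.12 and 0.03 in TG mice, and for the 9 astrocyte markers they lay between -0.07 and 0.09 in all libraries. With a choroid plexus score as a covariate the median log2 fold change of the 34 mitochondrial genes was -0.29 and mt-Co3 had -0.85. For the endothelium, ependyma and blood markers TG1, with medians of 0.09, -0.27 and -0.03, was not the lowest library. The part of the choroid plexus, oligodendrocyte and microglia levels in the mitochondrial values was not tested.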

How the data were processed

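Hippocampal RNA-seq of 3 WT and 3 TG mice was used. The authors counted reads per gene with HTSeq and deposited FPKM computed from the read count and the gene length, 1 column per library, without pooling; the submitters' processing notes name GRCm38 and mm10, and the aligner, the strand setting and the rule for reads that match several genes are not given in the sources used here. The methods name Trizol and NEBNext Ultra, whereas the labels name RNeasy and SMARTer. Multiplied by gene length, 100% of the FPKM were whole multiples of 1 step per library (tolerance 0.05 reads), which gave the reads per gene.

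TG and WT were compared by limma 3.58.1 in R 4.3.3 (lmFit, eBayes with a trend, no covariate) on log2(FPKM + 0.1). The 20952 genes whose mean FPKM was 0.1 or more were tested, adjusted by Benjamini-Hochberg at 0.05. Fold changes on this scale understate those of low genes. The fit was tested on simulated data. Of the gene IDs, 54409 (99.8%) were found in GENCODE M21, from which the sequences were taken, and all 37 mitochondrial rows had the same length there. Sharing was measured in 50-base stretches against transcripts of nuclear genes instead of the nuclear genome, which was not used here. Each anticodon was located by its 3 letters and the base pairs of the stem around it.

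The members and lists were chosen with earlier results of these data known. All 37 rows may be named, as may, for each list, its most abundant gene and that of smallest p, and nuclear rows with at least 50% of their stretches in mitochondrial genes. The 17 refits changed the pseudocount, filter, variance trend, scaling, test (limma-voom), libraries, replicate block, gene length and GC content, choroid plexus covariate or the summing of copies. Restricting the genes to those outside the copied interval was added after seeing the data.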

Additional observations from a re-analysis of the deposited data

How the results depend on the processing

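With limma, 0 mitochondrial genes passed the adjusted threshold under any of the 17 refits. Over all genes, 2 passed in the comparison as reported. This count was 0 with pseudocounts of 0.01 and 1, without a filter, with limma-voom, with the replicate block, with the gene length and GC correction and with the choroid plexus covariate, 1 with a filter at FPKM 1, 9 without a variance trend, and between 0 and 6 (the latter without TG1) when libraries were left out. At an unadjusted p under 0.05 the choroid plexus covariate left 696 genes of 1238. The mitochondrial genes lower at that level numbered 4, and 2 with the gene length and GC correction; those higher numbered 1, and 0 with a pseudocount of 0.01, a filter at FPKM 1, no variance trend, limma-voom or the choroid plexus covariate, and between 0 and 1 with libraries left out. The replicate block gave 6 lower and 1 higher with a median of -0.25. Same-numbered libraries hardly deviated together (correlations 0.00314 to 0.0434) and not every library correlated best with its own number, so the numbers were not taken as pairs. The upkeep lists gave 4 genes, 2 with the gene length and GC correction and 1 with the choroid plexus covariate.

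The median log2 fold change of the mitochondrial genes stayed below 0, between -0.36 and -0.11 with libraries left out, -0.28 outside the copied interval and -0.22 for genes with at least 100 reads. For single genes, 26 of 576 values changed sign, in 14 of 34 genes. With the gene length and GC correction these were mt-Rnr1 (0.015), mt-Co2 (0.012), mt-Nd4 (0.016) and mt-Nd5 (0.10), and with the choroid plexus covariate mt-Tq (0.22) and mt-Co2 (0.28). With libraries left out the log2 fold changes ranged from -0.18 to 0.012 for mt-Tl1, -1.36 to 0.24 for mt-Tq, -0.25 to 0.091 for mt-Tn, -0.26 to 0.031 for mt-Ty, -0.41 to 0.16 for mt-Co2, -0.66 to 0.94 for mt-Atp8, -0.69 to 0.028 for mt-Atp6, -0.42 to 0.050 for mt-Tg, -0.91 to 0.046 for mt-Tr, -0.52 to 0.31 for mt-Nd4l, -0.26 to 0.13 for mt-Ts2 and -0.12 to 0.011 for mt-Nd5. The TG minus WT difference of the rRNA to mRNA ratio ranged from -0.0149 to 0.0142 and that of mt-Nd6 to the other mRNAs from -0.00242 to 0.00122. The cause was not tested. Depth limits the tRNAs most, since 6 tested tRNAs averaged under 10 reads. Standard errors of the most abundant genes depended on the setting. That of mt-Co1 was 0.295 as reported, 0.124 without a variance trend, 0.0972 with limma-voom and 0.946 without a filter. For mt-Nd1 these were 0.235, 0.149, 0.115 and 0.565. The unadjusted p of mt-Nd1 was 0.266, 0.112 and 0.632 in the limma settings and 0.0305 with limma-voom.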
